A study of Mus musculus with 14 samples.

Results

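Control cells at day 4 and day 5 of reprogramming were compared by RNA sequencing. They were 4 of the 14 libraries of the series: 2 titled as control day 4 and 2 titled as control day 5, chosen by those titles. All 14 libraries came from mouse embryonic fibroblasts of strain OG2/129SV, a background known for a green fluorescent reporter driven by Oct4 regulatory sequence. Every cell population was transduced with Oct4, Sox2, Klf4 and c-Myc and grown in medium for embryonic stem cells that contained LIF, so the control cells were reprogramming cells that carried a control vector, not untreated fibroblasts. The other vector of the series was Cdk9-DN, named for a dominant-negative Cdk9 kinase, with 2 libraries each at days 4, 5 and 10, as for the control vector, and 1 library of each vector at day 3. The labels name neither the backbone of the vectors nor a sort of the transduced cells, and they do not say that the 2 libraries of a group came from separate cultures. The p-values therefore reflect the spread among libraries, which may be technical. A gene enters with its FPKM, the fragments per kilobase of transcript scaled to library depth, in each library that lists it. The series lists 26962 genes, of which 24399 had a value in both control groups and 21550 in all 4 control libraries. The 5951 genes that reached 1 FPKM in 2 or more of the 12 libraries from days 4, 5 and 10 and could be fitted were tested.

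The first days after the 4 factors enter a fibroblast are known as a time of fast division and of loss of the fibroblast state. Cells round up, stress fibres and focal adhesions are lost, and epithelial junction and keratin genes come up in what is called the mesenchymal-to-epithelial transition, while the endogenous pluripotency network follows later. TGF-beta, acting through SMAD proteins, mechanical tension, acting through YAP with TEAD and through SRF with its actin-sensing cofactors, and growth factors, acting through ERK and AP-1, are known to hold fibroblasts in the mesenchymal state.

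The 4 libraries had 8.79 to 12.1 M implied fragments, a depth derived from the deposited bounds of the FPKM. Replicates differed by a median of 0.0841 at day 4 and 0.0835 at day 5 on the log2 scale, among genes that 100 or more implied fragments support. Control day 5 replicate 2 stood apart: its 10 highest entries held 76.2% of the summed FPKM, against 33.4% to 43.0% in the other 3. The entries behind this were short or repeated ones such as Mir5105, at 23611 and 55334 FPKM at day 4 and 52420.0 and 243870.0 at day 5. Of 14 fibroblast markers 7 were listed here and each reached 1 FPKM in at least 1 of the 4 libraries, Thy1, Mmp2 and Twist1 with 41.4 to 83.6 FPKM where listed. Other defining genes, Pou5f1 and Klf4 among them, were not analysed here. The 2 muscle markers listed were at 0 in all 4 libraries, and of 4 defining neural markers the 1 listed was at most at 0.145 FPKM. Of a longer neural list of 19 only 6 genes were tested, Nes among them. These summed to 114 and 113 FPKM at day 4 and 83.4 and 80.1 at day 5. The summed level of the 4 listed of 6 defining endothelial and blood markers was 2.65 and 2.87 FPKM at day 4 and 0.953 and 1.52 at day 5. Of a longer list of 27 only 4 genes were tested, and these summed to 21.6 and 15.7 and then 23.6 and 23.3. A gene not listed in a library adds nothing to its sum. Among the defining markers Lyz2, a lysozyme gene of macrophages, fell (-0.58, adjusted p = 0.0458, and up to 0.187 whichever library was left out), Tyrobp was at 1.01 FPKM or less and Cdh5 at 0.0265 or less. The part of these cells in the results was not tested. RNA was taken from whole cultures, so fewer cells of a type and less RNA per cell cannot be told apart.

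Between day 4 and day 5, 296 of 5951 genes (4.97%) were called at an adjusted p under 0.05, 106 higher (1.78%) and 190 lower (3.19%), while 1196 had an unadjusted p under 0.05. Differences are log2(FPKM + 1) at day 5 minus day 4 throughout, which understates the change of low genes, and p-values are two-sided, from limma with the Benjamini-Hochberg adjustment over all genes tested. The median over all genes tested was 0.03. Most called changes were modest: the median size was 0.63 among higher genes and 0.59 among lower genes, and 24 and 26 of them exceeded 1. All 90 higher and 149 lower genes called and listed in the 4 libraries had groups without overlap, a property that 26.6% and 19.3% of the 4685 genes so listed had in those directions. Quantile normalization gave 64 higher and 230 lower calls, so the split between directions depends on the scaling. In the same fit 2.96% of the 2770 protein-coding genes were called higher and 5.16% lower. The gene lists below hold mostly protein-coding genes, so these shares are closer to the lists than those of all genes tested. Refitted with protein-coding genes alone, 424 of 2770 (15.3%) were called, 175 higher (6.32%) and 249 lower (8.99%). Fewer genes were called with any 1 of the 4 libraries left out, which left 1 library in a group. The spread and the adjustment were estimated anew in each fit. A call could end without a library that does not list the gene, as for Tgfb3 without day 4 replicate 1. An ended call therefore does not show that the library left out carried it. Every call of the full comparison that could be refitted in these 4 ways kept its sign. A call is described below as held where it passed in each of the 4 fits, and otherwise the libraries whose removal ended it are named.

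**Figure D1:**
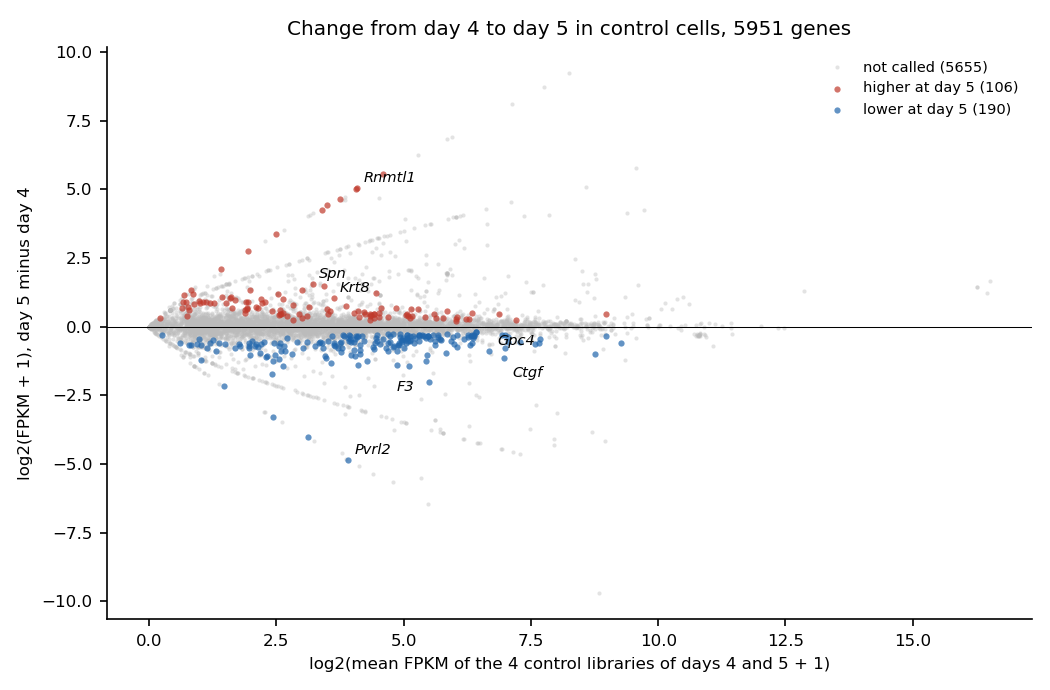
Each point is 1 of the 5951 genes tested, placed by log2 of its mean FPKM over the 4 control libraries plus 1 and by its log2(FPKM + 1) at day 5 minus day 4, with called genes in colour. Most of the 106 higher and 190 lower genes lie within 1 of the zero line, F3 (-1.44) and Ctgf lie below that range, Spn (1.53) and Krt8 above it, and the uppermost and lowest called points, such as Rnmtl1 and Pvrl2, were listed at 0 on 1 of the days.

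Promoters of some genes that moved are shown as examples. They were picked for carrying letters known to be read by SRF, AP-1, TEAD or, for Mcm6, the E2F factors of S phase. How common these letters are is given in the next paragraph, and their part in the changes was not tested. They are RefSeq sequences of build GRCm38.p6, taken from the 250 bases before each gene's start, 5′ to 3′ on the gene's own strand, with the motif in capitals. Dusp5, which encodes an ERK phosphatase, lies on the plus strand with this stretch at chr19:53528995-53529144, and the capitals are a pair of adjoining CArG boxes, the site bound by SRF, starting 82 and 72 bases before the start.
Dusp5: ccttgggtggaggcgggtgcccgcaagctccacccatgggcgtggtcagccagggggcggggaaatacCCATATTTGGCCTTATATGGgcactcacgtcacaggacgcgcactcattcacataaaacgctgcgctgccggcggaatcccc
Plaur, the urokinase receptor gene (plus strand, chr7:24462333-24462482), and F3, the tissue factor gene (plus strand, chr3:121723337-121723536), each hold an AP-1 site, TGACTCA or TGAGTCA, 69 and 135 bases before the start.
Plaur: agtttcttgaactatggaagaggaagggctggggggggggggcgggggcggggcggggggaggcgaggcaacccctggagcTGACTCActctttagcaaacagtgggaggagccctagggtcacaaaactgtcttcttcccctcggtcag
F3: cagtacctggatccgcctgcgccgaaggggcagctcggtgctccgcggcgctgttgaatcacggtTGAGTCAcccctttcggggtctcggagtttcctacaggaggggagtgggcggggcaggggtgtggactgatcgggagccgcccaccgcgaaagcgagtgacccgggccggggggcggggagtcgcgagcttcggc
Ankrd1, a YAP target gene (minus strand, chr19:36119845-36120094), holds the TEAD letters GGAATG 210 and 123 bases before its start.
Ankrd1: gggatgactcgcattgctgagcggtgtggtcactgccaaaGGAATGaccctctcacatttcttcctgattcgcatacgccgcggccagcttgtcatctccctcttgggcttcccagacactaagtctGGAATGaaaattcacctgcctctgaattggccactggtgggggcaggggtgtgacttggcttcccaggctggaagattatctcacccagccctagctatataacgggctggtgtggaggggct
Mcm6, a subunit of the replicative helicase (minus strand, chr1:128359706-128359855), holds 3 E2F matches (TTTGGCGC, TTTCCCGC, TTTCGCGC or TTTGCCGC on either strand), 110, 106 and 47 bases before the start, the first pair overlapping on opposite strands.
Mcm6: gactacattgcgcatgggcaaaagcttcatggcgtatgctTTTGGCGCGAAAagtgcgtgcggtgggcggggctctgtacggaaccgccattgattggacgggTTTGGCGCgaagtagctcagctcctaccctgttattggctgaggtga

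Promoters were found for 110 of the 190 lower genes (122 promoters), 61 of the 106 higher genes (71 promoters) and 2250 of all genes tested. Both strands were searched over the span before each gene's start from which the examples above were taken, and not past the start. The CArG box was in 6 lower promoters (4.92%), 0 higher promoters and 1.11% of those of all genes tested. Its holders among the lower genes were Dusp5, Fhl2, Glipr2, Stbd1 and D4Bwg0951e. The AP-1 letters were in 11 lower promoters (9.02%), 3 higher ones (4.23%) and 4.40% of all tested, with F3, Plaur, Bag3 and Sprr2b among the lower holders. The TEAD letters were in 13.9%, 11.3% and 11.9%, the E2F letters in 3.28%, 1.41% and 3.29%, and the Myc E-box CACGTG in 6.56%, 9.86% and 7.01%. A match describes the letters of a promoter and shows no binding.

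Among target genes of YAP with TEAD and of TGF-beta, most of those tested were called lower at day 5. Of all genes tested 3.19% were, and of the protein-coding ones 5.16%. Of 5 YAP and TEAD target genes tested 4 fell and 0 rose, with a median of -1.16, and of 7 TGF-beta response genes 5 fell and 0 rose, with a median of -0.64, against 0.03 over all genes tested. Ctgf and Cyr61 stand in both lists, and Id2 and Bhlhe40, described below, are TGF-beta response genes that fell as well. Ctgf, a matricellular protein gene (chromosome 10, 24315248 to 24318489 in mm9), had 172 and 173 FPKM at day 4 and 78.6 and 75.0 at day 5. It fell 2.25-fold (-1.16, SE 0.04, adjusted p = 5.65e-05), with the replicates far closer to each other than the days.

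F3, which starts blood coagulation as tissue factor (chromosome 3, 121426455 to 121437970), went from 52.0 and 46.6 FPKM to 16.8 and 18.1 (-1.44, SE 0.10, adjusted p = 0.002). Ankrd1, an ankyrin repeat protein gene of stretched muscle and fibroblasts (chromosome 19, 36186455 to 36194334), had 8.33 and 7.70 FPKM at day 4 and 2.94 and 1.86 at day 5. Both fell, by 2.82-fold and 3.34-fold in the means. Ankrd1 (-1.42, adjusted p = 0.00776) was not called without day 4 replicate 1 (adjusted p = 0.0623), while the calls of Ctgf and F3 held. Cyr61, the close relative of Ctgf, had 158 FPKM at day 4 (1 library) and 107 and 106 at day 5 (-0.56, adjusted p = 0.021), and its call ended without day 4 replicate 1 or either day 5 library (up to 0.109). Crim1 did not pass (-0.56), nor did the TGF-beta response genes Junb (-0.19) and Tgfbi (-0.03), the latter at 17.4 and 17.9 FPKM at day 4 and 18.7 and 15.9 at day 5. Of the 5 TGF-beta ligands, receptors and modulators tested, Tgfb3 alone was called lower, where 3.19% of all genes tested were. Its level went from 20.7 to 12.6 FPKM with 1 library on each day (-0.68, adjusted p = 0.0475). Neither refit that could be made, without replicate 1 of day 4 or of day 5, called it.

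Genes of actin and of SRF moved the same way among the few that were tested. Of 4 SRF target and actin cytoskeleton genes 3 fell, where 3.19% of all genes tested did, 0 rose and the median was -0.84. Lmod1, which encodes the actin nucleator leiomodin, had 6.90 and 6.28 FPKM at day 4 and 2.48 and 1.93 at day 5. It fell 2.99-fold (-1.25, SE 0.12, adjusted p = 0.00313) and its call held. Cnn1, the smooth muscle calponin gene, stood at 23.9 and 8.47 FPKM in the 1 library that listed it on each day (-1.40, adjusted p = 0.0107). Cnn3, a related calponin gene, had 234 FPKM at day 4 (1 library) and 176 and 170.3 at day 5 (-0.43, adjusted p = 0.0367), a call that ended without day 4 replicate 2 or either day 5 library (up to 0.149). Srf itself did not pass (-0.42).

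**Figure D2:**
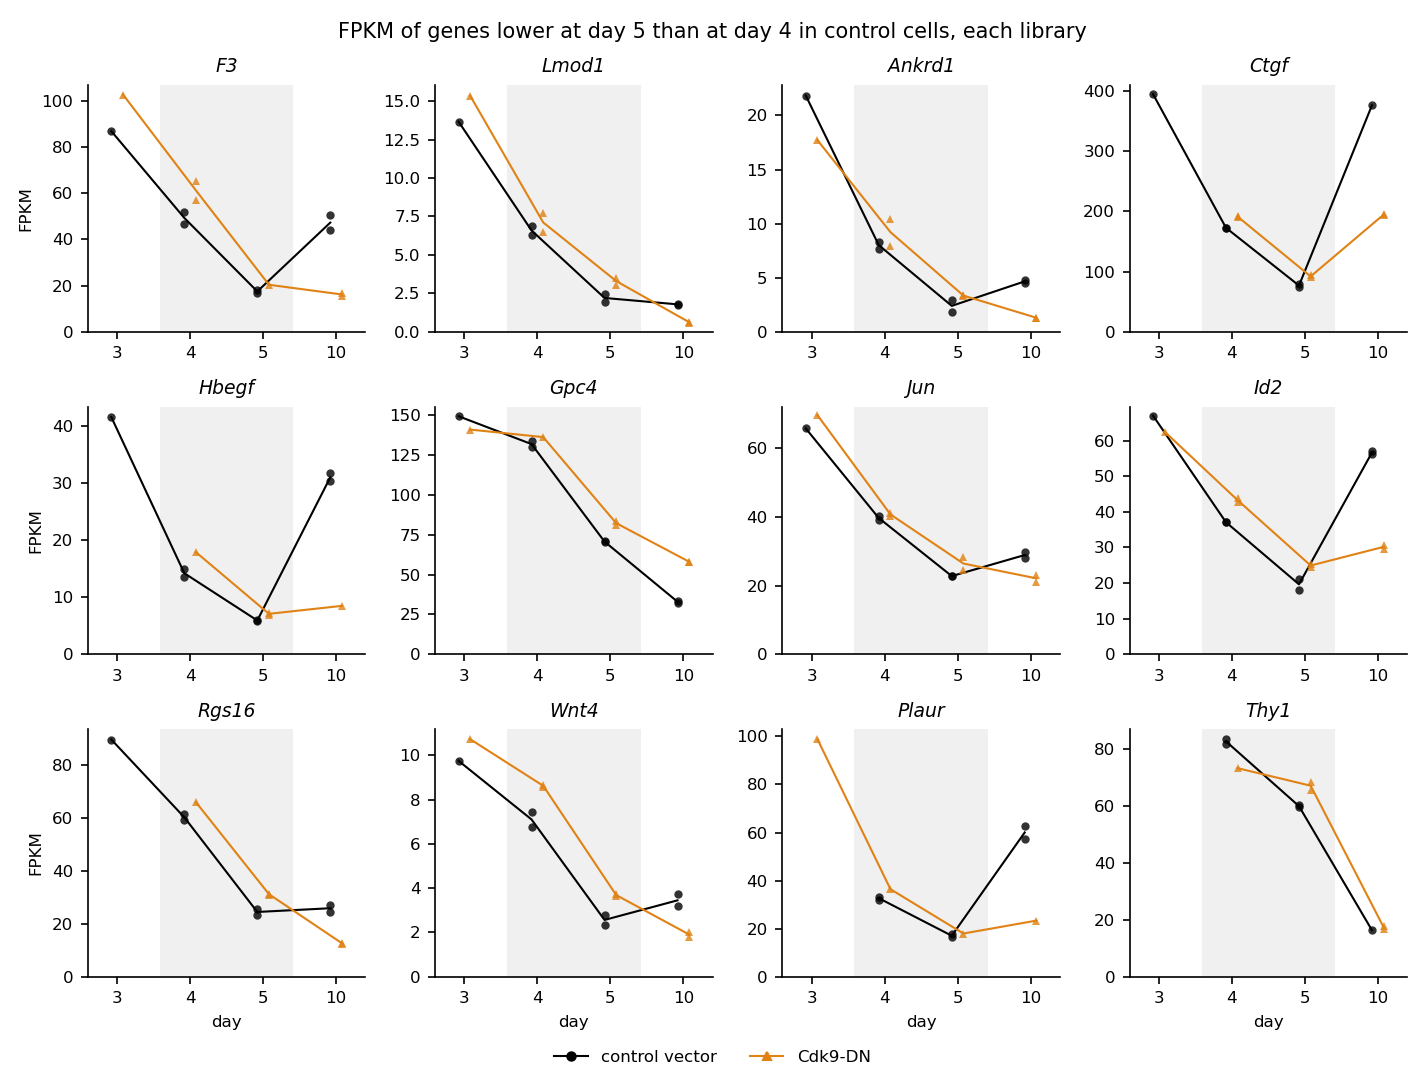
FPKM (vertical axes from 0, scaled per gene) by day for 12 genes lower at day 5 than at day 4, 1 symbol per library, circles and black for control and triangles and orange for Cdk9-DN, with lines through the means of adjacent days that have values and days 4 and 5 shaded. In each of the 12 panels both control libraries of day 5 lie below both of day 4, with F3 at 52.0 and 46.6 FPKM against 16.8 and 18.1.

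Immediate early genes, the first transcripts to answer serum and growth factors, were called lower in part. Of 13 immediate early transcription factors tested 6 fell and 1 rose (median -0.45), where 3.19% and 1.78% of all genes tested did. Jun, a core AP-1 subunit (chromosome 4, 94715725 to 94718913), had 40.3 and 39.0 FPKM at day 4 and 22.8 and 22.7 at day 5. Its day 5 replicates were nearly equal and its fall of 1.74-fold (-0.77, SE 0.07, adjusted p = 0.00308) held. Fosl2, its Fos-family partner, had 26.4 FPKM (1 library) and then 14.6 and 14.4 (-0.82, adjusted p = 0.00374), and passed in the 3 refits that could be made. Nfil3 (-0.88), the circadian repressor gene Bhlhe40 (-0.64), Klf6 (-0.61) and Jund (-0.45) fell too. The call of Nfil3 ended without either day 4 library or day 5 replicate 2 (up to 0.164), that of Klf6 likewise (up to 0.08), and that of Bhlhe40 without day 4 replicate 1 (0.0623) or day 5 replicate 2 (0.0552).

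Egr1, a zinc finger factor of the same serum response and a known SRF target, went the other way. It had 17.4 and 16.5 FPKM at day 4 and 23.1 and 24.1 at day 5 (0.46, adjusted p = 0.0134). It was the 1 higher gene of the list, and its call ended whichever library was left out (up to 0.0824). So did that of Jund (up to 0.172), and both genes were chosen after their values were seen, as were the uncalled members named beside called ones. Junb (-0.19), Fosl1 (-0.48) and Fosb (0.16) were not called. Of the 6 Jun and Fos genes tested 3 fell and 0 rose, where 3.19% of all genes tested fell.

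Signal regulators of the immediate early response fell in 7 of 22 and rose in 0 (median -0.33), where 3.19% of all genes tested fell. Plaur, the receptor that focuses urokinase at the cell surface, had 32.0 and 33.3 FPKM at day 4 and 17.6 and 16.5 at day 5 (-0.90, adjusted p = 0.0134). Gadd45g, a stress-induced growth arrest gene, had 159 FPKM (1 library) and then 97.1 and 87.9 (-0.78, adjusted p = 0.0134). Dusp5, whose promoter holds the paired CArG boxes above, had 5.57 and 5.52 FPKM and then 3.63 and 3.09 (-0.59, adjusted p = 0.0296). In each the day 5 libraries lay below those of day 4. Rhob, a small GTPase of actin organisation, had -0.67 (adjusted p = 0.00776) and Ier5 -0.77 (adjusted p = 0.0224), and Gadd45b and the antiproliferative gene Btg2 were also lower. The calls of Plaur, Ier5, Dusp5 and Btg2 ended whichever library was left out (up to 0.0875, 0.124, 0.141 and 0.137), that of Gadd45b without either day 4 library or day 5 replicate 2 (up to 0.127), that of Rhob without day 4 replicate 1 (0.0623) and that of Gadd45g without day 5 replicate 2 (0.0574). The ERK feedback genes Spry2 (-0.03), Spry4 (0.50) and Dusp6 (-0.13) were not called.

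Among 14 growth factor and receptor genes, 1 fell, where 3.19% of all genes tested did, and the median was -0.47. That gene was Hbegf, a membrane-anchored ligand of the EGF receptor, with 13.5 and 14.9 FPKM at day 4 and 6.05 and 5.77 at day 5. It fell 2.399-fold (-1.13, SE 0.07, adjusted p = 0.00374), and the call held. Of the 14, 13 had a negative difference, among them Fgf18 (-0.73) and Il6 (-0.63), neither of which passed. With protein-coding genes alone 6 of the 14 were called lower and 0 higher, where 8.99% and 6.32% of all genes in that setting were.

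Some Wnt and BMP genes fell, where 3.19% of all genes tested did. Of 14 Wnt ligands, modulators and targets tested 2 fell and 0 rose (median -0.22). Wnt4, a secreted ligand, had 6.75 and 7.46 FPKM at day 4 and 2.78 and 2.35 at day 5, a fall of 2.77-fold (-1.19, SE 0.09, adjusted p = 0.00139). Gpc4, a heparan sulphate proteoglycan that binds Wnt, FGF and BMP ligands (chromosome X, 49406198 to 49518429), had 134 and 130.1 FPKM and then 70.6 and 70.8. It fell 1.87-fold (-0.89, SE 0.04, adjusted p = 1.40e-04). Both calls held. Of 12 BMP and Id genes 2 fell and 0 rose (median -0.30). Id2, an inhibitor of basic helix-loop-helix factors that BMP and TGF-beta signals regulate, had 37.1 and 37.0 FPKM at day 4 and 21.1 and 18.2 at day 5 (-0.89, SE 0.06, adjusted p = 0.00101), and its call held. Grem1, a secreted BMP antagonist, fell by less (-0.31, adjusted p = 0.0321), and its call ended whichever library was left out (up to 0.149). With protein-coding genes alone 4 Wnt genes were called lower and 1 higher, and 5 BMP and Id genes lower and 0 higher. Of all genes in that setting 8.99% were called lower and 6.32% higher.

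Genes of arrest, senescence and p53 were in part lower, where 3.19% of all genes tested were lower and 1.78% higher. Of 11 senescence and secretory genes 5 fell, Plaur, Cdkn2b, Bhlhe40 and Ccl2 among them, and 0 rose, with a median of -0.56. Of 6 cell cycle brakes 2 fell, and of 8 p53 target genes 3 fell, with 0 higher in either list and medians of -0.26 and -0.28. The lists share calls. Btg2 counts as a brake, a p53 target and an immediate early signal regulator, and Cdkn2b as a brake and a senescence gene. Plaur and Bhlhe40 also count in lists described above. Cdkn2b, the CDK inhibitor p15 that TGF-beta induces, had 30.5 and 31.2 FPKM at day 4 and 18.5 and 16.6 at day 5 (-0.78, adjusted p = 0.0134). The call ended without either day 4 library or day 5 replicate 2 (up to 0.0764). Cdkn2a, which encodes p16 and p19Arf, was not called (0.23). Gdf15, a stress cytokine gene, had 5.76 FPKM (1 library) and then 2.05 and 2.21 (-1.11, adjusted p = 0.02), a call that ended without either day 5 library (0.0807 and 0.0877). Plk2, a polo-like kinase gene and p53 target, had 34.8 and 35.7 FPKM and then 27.0 and 25.9 (-0.40, adjusted p = 0.00686), and its call held. Of 10 chemokine and inflammatory genes 1 rose and 1 fell. Ccl2, the monocyte attractant, had 49.5 and 53.8 FPKM and then 37.5 and 37.7 (-0.45, adjusted p = 0.0161), a call that ended whichever library was left out (up to 0.0851). Ccl8, a related chemokine gene, was listed at 0 and at 0.237 FPKM at day 4 and had 1.43 and 1.63 at day 5 (adjusted p = 0.00896), and its call ended without day 4 replicate 1 (0.062) or day 5 replicate 2 (0.0581).

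Genes of the fibroblast state fell in part, where 3.19% of all genes tested fell. Of 10 mesenchymal regulators and adhesion genes 2 fell and 0 rose (median -0.26), and of 9 fibroblast matrix genes 2 fell and 0 rose (median 0.01, close to that of all genes). With protein-coding genes alone the first list had 2 higher and 2 lower, and the second 1 higher and 2 lower. Of all genes in that setting 6.32% were called higher and 8.99% lower. Snai2, a repressor of epithelial genes, had 6.82 and 6.72 FPKM at day 4 and 4.04 and 3.51 at day 5 (-0.70, adjusted p = 0.0143). Itga5, the fibronectin receptor subunit, had 34.1 and 33.7 FPKM and then 20.8 and 20.2 (-0.70, adjusted p = 0.00845). Timp3, a metalloproteinase inhibitor bound to matrix, had 97.3 and 95.3 FPKM and then 60.3 and 59.5 (-0.68, adjusted p = 0.00772). All 3 calls ended without either day 4 library or day 5 replicate 2 (up to 0.0896, 0.0623 and 0.0623).

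Thy1, the surface marker whose loss marks cells leaving the fibroblast state, had 83.6 and 81.9 FPKM at day 4 and 60.5 and 59.5 at day 5. It fell 1.38-fold (-0.46, SE 0.05, adjusted p = 0.0134), and its call ended whichever library was left out (up to 0.0919). Matrix genes that did not pass stood on both sides of 0: Dcn, the decorin gene, at 16.04 and 15.1 FPKM and then 15.8 and 19.8 (0.17), and Mmp2, a gelatinase gene, at 54.6 (1 library) and then 70.8 and 71.1 (0.37, adjusted p = 0.0762). Twist1 (-0.43), Snai1 (-0.34) and Pdgfra (-0.05) did not pass either. With protein-coding genes alone Mmp2 was called higher (adjusted p = 0.0263).

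Epithelial genes gave 2 rises and 0 falls among 13 tested, with a median of 0.12, where 1.78% of all genes tested rose. Krt8, a keratin of simple epithelia (chromosome 15, 101827142 to 101834773), had 6.93 and 7.19 FPKM at day 4 and 15.6 and 15.5 at day 5, and rose 2.204-fold (1.04, SE 0.09, adjusted p = 0.00586). Cldn3, a tight junction claudin (chromosome 5, 135462084 to 135463342), had 2.14 and 2.003 FPKM and then 4.98 and 5.32, and rose 2.48-fold (1.0007, SE 0.19, adjusted p = 0.0306). Krt8 was not called without day 4 replicate 1 (0.0524), and the call of Cldn3 ended whichever library was left out (up to 0.14). Krt18, the usual partner of Krt8, was at 0.755 and 0.426 FPKM and then 0.853 and 0.921 (0.25, adjusted p = 0.35), so it stayed below 1 FPKM on both days. Epcam stood at 0.737 and 0.278 FPKM and then 1.47 and 1.15 (0.63, adjusted p = 0.136), and the claudin genes Cldn4 and Cldn6 were at 0.0693 FPKM or less in all 4 libraries. Both claudin genes were tested through other libraries and count in the median above. The summed level of the 6 listed epithelial markers was 10.6 and 9.95 FPKM at day 4 and 22.9 and 23.0 at day 5, most of it Krt8.

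Markers of keratinocytes and trophoblast went the other way or did not pass. Of 10 tested, Sfn fell and 0 rose (median -0.21), where 3.19% of all genes tested fell. Sfn, the 14-3-3 sigma gene of stratified epithelium, had 6.21 and 6.05 FPKM at day 4 and 3.44 and 4.02 at day 5 (-0.60, adjusted p = 0.0121), a call that ended without either day 4 library (0.0764 and 0.061). Krt14, at 8.18 and 8.14 FPKM and then 7.34 (1 library), was not called (-0.14).

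Of 14 pluripotency genes tested 1 rose, where 1.78% of all genes tested did, 0 fell and the median was 0.04. With protein-coding genes alone 4 of them were called higher and 0 lower, where 6.32% and 8.99% of all genes in that setting were. Some members were nearly absent on both days, such as Dppa5a and Utf1, at 0.0944 FPKM or less in all 4 libraries. The median near 0 therefore does not describe steady expression. Nr0b1, which encodes the nuclear receptor DAX1 of embryonic stem cells (chromosome X, 83437103 to 83441286), stood at 0 in each day 4 library and had 1.36 and 1.06 FPKM at day 5 (adjusted p = 0.00139), a call that held. Nanog stood at 1.08 and 0.707 FPKM and then 1.15 and 1.63 (0.34, adjusted p = 0.325), without overlap and without a call. Sox2, which was transduced, had 373 and 367 FPKM and then 489 (1 library; 0.40, adjusted p = 0.22). Myc, also transduced, had 601 and 599.7 FPKM and then 819 and 844 (0.47, adjusted p = 0.0544). Transcripts of the vectors and of the cells' own genes were not separated, and neither gene passed.

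Of 10 S phase and replication genes tested 2 rose and 0 fell, where 1.78% of all genes tested rose. All 10 had a positive difference, from 0.03 to 0.39, with a median of 0.31. Mcm6 (chromosome 1, 130228168 to 130256233) had 56.7 and 57.9 FPKM at day 4 and 74.8 and 72.5 at day 5, and rose 1.29-fold (0.36, SE 0.04, adjusted p = 0.0325). Mcm3, another subunit of the helicase, had 48.1 and 47.8 FPKM and then 60.1 (1 library; 0.32, adjusted p = 0.0252). Both calls ended in every refit that could be made without a library (up to 0.163 and 0.122). With protein-coding genes alone 7 of the 10 were called higher, where 6.32% of all genes in that setting were. Of 6 mitosis genes none was called (median 0.20), with Birc5, the survivin gene, at 69.1 and 75.8 FPKM and then 93.0 and 98.9 (0.40, adjusted p = 0.0821). With protein-coding genes alone Birc5 was the 1 mitosis gene called higher (adjusted p = 0.0282). Of 51 replication-dependent histone genes 2 fell, a share near the 3.19% of all genes tested that did. They were Hist1h2bc (-0.47, adjusted p = 0.00716) and Hist1h1c (-0.35, adjusted p = 0.0312), while 0 rose and the median was 0.11. The first was not called without day 4 replicate 1 (0.062), and the second whichever library was left out (up to 0.144).

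Of 8 ribosome biogenesis and Myc target genes 2 rose and 0 fell (median 0.18), where 1.78% of all genes tested rose. Rrs1, a ribosome assembly factor, had 59.9 and 56.5 FPKM at day 4 and 71.2 and 69.4 at day 5 (0.27, adjusted p = 0.0196). Ddx21, a nucleolar RNA helicase, had 71.0 and 68.6 FPKM and then 84.0 in each library (0.26, adjusted p = 0.0345). Both calls ended whichever library was left out (up to 0.0988 and 0.156).

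**Figure D3:**
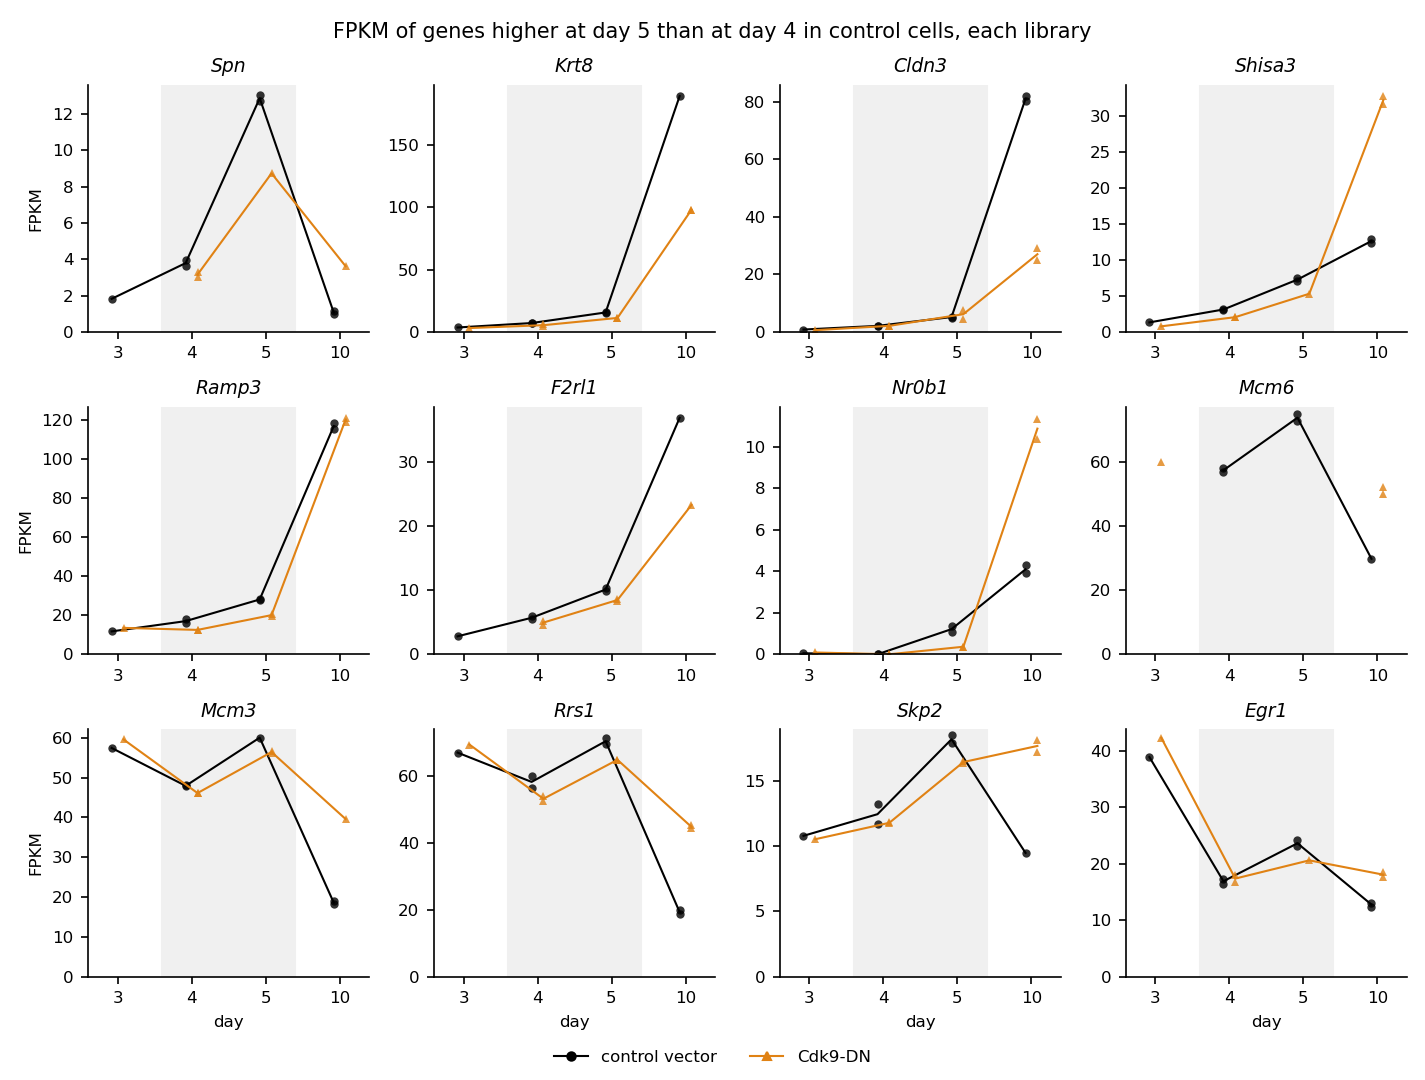
FPKM (vertical axes from 0, scaled per gene) by day for 12 genes higher at day 5 than at day 4, 1 symbol per library, circles and black for control and triangles and orange for Cdk9-DN, with lines through the means of adjacent days that have values and days 4 and 5 shaded. In each of the 12 panels the control libraries of day 5 lie above those of day 4, and Krt8, at 15.6 and 15.5 FPKM at day 5, is far below its later level of 189 FPKM at day 10 (1 library).

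Outside the lists, and among genes measured above 0 in all 4 libraries, Spn had the largest called rise of the named genes. Spn, which encodes the sialylated mucin CD43 of blood cells (chromosome 7, 134275746 to 134281337), had 3.62 and 3.95 FPKM at day 4 and 12.7 and 13.0 at day 5, and rose 3.397-fold (1.53, SE 0.08, adjusted p = 0.002). Shisa3, of a family known to hold back Wnt and FGF receptors, had 2.99 and 3.24 FPKM and then 7.01 and 7.53 (1.01, SE 0.06, adjusted p = 0.00128). Ramp3, a partner of calcitonin-like receptors, had 16.1 and 17.9 FPKM and then 27.8 and 28.4 (0.70, adjusted p = 0.00139). These 3 calls held, while those of Rnase1 (1.18), the protease-activated receptor gene F2rl1 (0.73) and Bex4 (0.79) ended whichever library was left out (up to 0.121, 0.0909 and 0.114), and that of Lypd2 (0.91) without day 4 replicate 1 (0.0623) or day 5 replicate 2 (0.0626). The sums of blood and endothelial markers are given above, and the part of blood cells in the level of Spn was not tested. Egln3, an oxygen-sensing prolyl hydroxylase gene, was the 1 called member of the 6 hypoxia and glycolysis genes tested, where 1.78% of all genes tested rose. It had 9.18 and 10.4 FPKM and then 17.2 (1 library, 0.75, adjusted p = 0.0334), and passed in none of the 3 refits.

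Among the largest falls outside the lists was Rgs16, a brake on G protein signalling, with 59.1 and 61.3 FPKM at day 4 and 25.5 and 23.4 at day 5. It fell 2.46-fold (-1.27, SE 0.06, adjusted p = 4.15e-04) and its call held. Basp1, a membrane-bound growth cone protein gene, had 77.8 and 71.0 FPKM and then 41.8 and 34.3 (-0.95, adjusted p = 0.00776), and was not called without day 4 replicate 1 (0.062). Cdc42ep3 (-1.03), an effector of the GTPase Cdc42, was called in none of the 4 refits (up to 0.102). The transcript U90926 (-1.71), the G protein subunit gene Gng11 (-1.04) and the transcription factor gene Atoh8 (-1.07) fell as well. The call of U90926 ended without day 4 replicate 1 or either day 5 library (up to 0.0855), that of Gng11 without either day 4 library (up to 0.0924) and that of Atoh8 without either day 4 library or day 5 replicate 2 (up to 0.1).

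Entries listed at exactly 0 on 1 day made up the largest fitted differences, and an exact 0 can be a failed estimate in this kind of table, so no fold is given for them. Pvrl2, which encodes the adhesion molecule nectin-2 (chromosome 7, 20301993 to 20334922), had 27.5 and 28.5 FPKM at day 4 and was listed at 0 in both day 5 libraries (adjusted p = 3.32e-04). Rnmtl1, an RNA methyltransferase gene (chromosome 11, 76057217 to 76064121), stood at 0 in each day 4 library and had 28.8 and 35.03 FPKM at day 5 (adjusted p = 5.65e-05). Fam116a (adjusted p = 1.35e-04) went from 0 to 5.76 and 5.69 FPKM. These 3 genes, with Ctgf and Gpc4, were among the 6 named genes called under all 16 alternative settings. The setting for zeros took a 0 as missing only beside at least 5 FPKM in the other library of its group. It left a 0 in both libraries of a group in place, so for these 3 genes the settings could not test for failed estimates. Small nucleolar RNA entries were also listed at 0 on 1 of the days: SNORA41, SNORA26 and SNORA55 were at 0 at day 4 and 12.5 to 32.3 FPKM at day 5, and SNORA35 was at 17.0 and 13.8 FPKM and then at 0. The calls of the first 3 ended whichever library was left out (up to 0.153).

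Lists without a call, in either direction, were interferon response (6 tested, median 0.34), nuclear oxidative phosphorylation (20, -0.08), cytosolic ribosomal protein (7, 0.06), amino acid and integrated stress response (10, -0.11), unfolded protein response (5, -0.02), oxidative stress and metallothionein (8, -0.17), cholesterol and fatty acid synthesis (4, 0.03), and P-TEFb, pausing and elongation genes (5, 0.06). With protein-coding genes alone some of these lists had calls: 2 interferon response genes higher, 1 stress response gene higher and 1 lower, 1 oxidative stress gene higher and 1 lower, 1 unfolded protein response gene lower and 1 elongation gene higher. Of all genes in that setting 6.32% were called higher and 8.99% lower. The epigenetic (2 tested) and endoderm and mesoderm (1 tested) lists had no call either. Hexim1, an inhibitor of P-TEFb, was at 15.4 FPKM (1 library) and then 16.8 and 15.4 (0.06, adjusted p = 0.819). Atf4, the factor at the centre of the integrated stress response, had 123 and 114 FPKM with 1 library on each day (-0.11, adjusted p = 0.512). Of 6 heat shock genes 2 fell, where 3.19% of all genes tested did. They were Bag3 (-0.49, adjusted p = 0.0206) and Hspb8 (-0.37, adjusted p = 0.0206), 2 partners in chaperone-assisted autophagy. Both calls ended whichever library was left out. Of 6 neural markers 1 rose and 1 fell, where 1.78% and 3.19% of all genes tested did. Insm1 rose (0.87, adjusted p = 0.02), and Nes, the nestin gene, fell (-0.64, adjusted p = 0.00856). The call of Insm1 ended without either day 4 library or day 5 replicate 2 (up to 0.107) and that of Nes without either day 4 library (0.0623 and 0.0532).

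**Figure D4:**
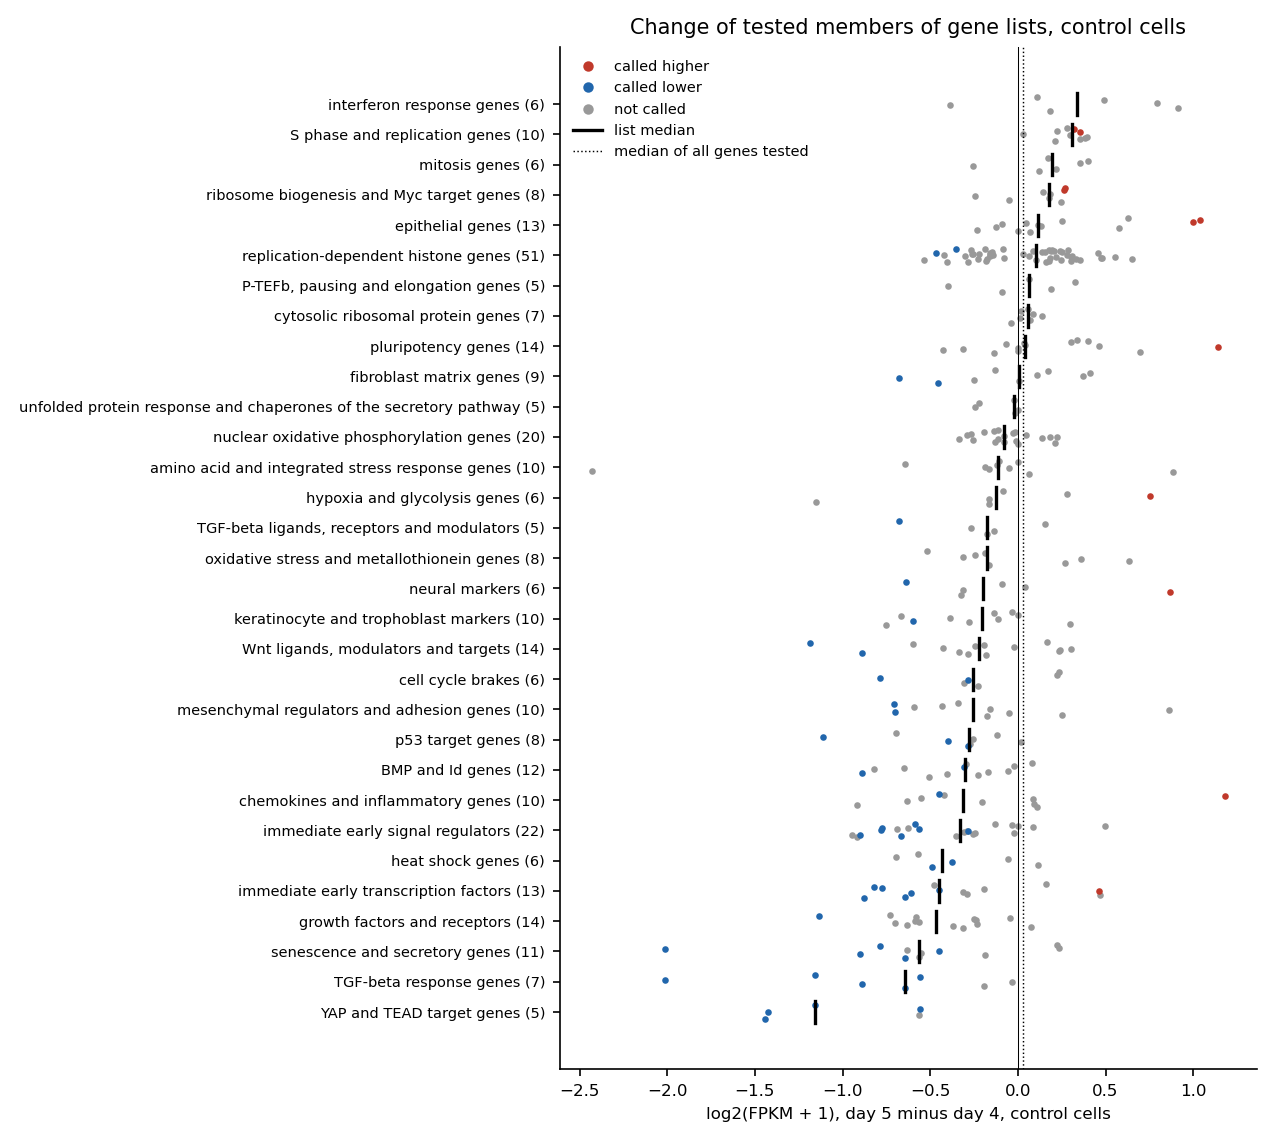
Each row is a gene list with at least 5 tested members (their number in brackets), each point a member's log2(FPKM + 1) at day 5 minus day 4, called higher in red or lower in blue, with the list's median as a black bar and that of all genes tested as a dotted line. The lists are ordered by their median, from interferon response at 0.34 at the top, where no member was called, to YAP and TEAD target genes at -1.16 at the bottom, where 4 of 5 members fell.

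The same day under Cdk9-DN, in libraries that share none with the control groups, moved the control genes in the same direction. Of 5906 genes tested there, 194 (3.28%) were called, 79 higher (1.34%) and 115 lower (1.95%). Of the 185 genes lower in control cells and tested under both vectors, 182 (98.4%) had a negative difference under Cdk9-DN, where 46.6% of all genes did, and 91 were called lower. These 91 were 49.2% of the control genes and 81.3% of the 112 genes lower under Cdk9-DN. Of the 103 higher genes, 95 (92.2%) had a positive difference, where 50.8% of all genes did, and 48 were called higher, which is 46.6% of the control genes and 63.2% of the 76 under Cdk9-DN. No gene was called in opposite directions. Both steps came from 1 fit and share each gene's estimate of the spread, so the overlap of their calls is not that of independent tests. The median difference of the lower genes was -0.58 in control cells and -0.42 under Cdk9-DN, and that of the higher genes 0.65 and 0.45. The genes were picked for their size in control cells, so the smaller medians under Cdk9-DN are a description only.

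F3 had 65.5 and 56.9 FPKM at day 4 and 20.4 at day 5 (1 library) under Cdk9-DN (-1.54, adjusted p = 0.00483). Ctgf had 192 and 191 FPKM and then 90.4 and 93.7 (-1.05, adjusted p = 1.69e-04). Krt8 had 4.70 and 5.9996 FPKM and then 11.04 and 11.3 (0.95, adjusted p = 0.0097). All 3 thus changed in the same direction under both vectors. Thy1 had 73.3 FPKM (1 library) and then 65.8 and 68.6 (-0.12, adjusted p = 0.37), Snai2 -0.31 (adjusted p = 0.23) and Egr1 0.23 (adjusted p = 0.16), and their difference between the vectors was not called. The test of that difference called 6 of 5694 genes (0.105%), 3 in each direction (0.0527% each), and each of them had libraries listed at 0: the U6 entry, Pvrl2 and SNORA35 by the rule, and AC165279.1, Gm17035 and 9330151L19Rik, named after their values were seen.

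**Figure D5:**
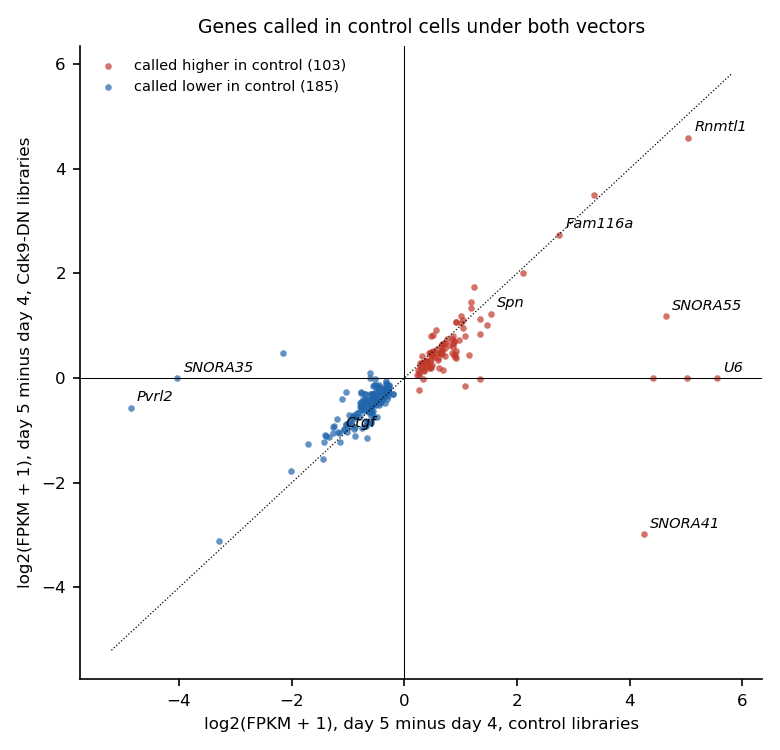
Each point is a gene called in control cells and tested under both vectors, 103 higher and 185 lower, with its log2(FPKM + 1) at day 5 minus day 4 in the control libraries (horizontal) and the Cdk9-DN libraries (vertical), and a dotted line of equality. Most points lie near the line, in the lower left or upper right, and the points far from it, such as Pvrl2, SNORA35, SNORA41 and the U6 entry, were listed at 0 in both control libraries of 1 day.

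The levels before and after put the step in its course. The day 3 level is that of 1 library and was not tested, and the day 10 comparison shares the day 5 libraries, so the values are given side by side. Between day 5 and day 10 of the control cells 2882 of 5798 genes (49.7%) were called, 1581 higher (27.3%) and 1301 lower (22.4%). Ctgf was at 395 FPKM at day 3, 173 ± 0.629 (SD, n = 2) at day 4, 76.8 ± 2.55 at day 5 and 376 (1 library) at day 10. Hbegf was at 41.5, 14.2 ± 0.99, 5.91 ± 0.197 and 31.0 FPKM, and Id2 at 67.0, 37.1 ± 0.0253, 19.6 ± 2.06 and 56.6. For these genes day 5 was the lowest of the 4 days. Of the 5 YAP and TEAD target genes 4 were called higher at day 10 than at day 5 and 1 lower, and of the 7 TGF-beta response genes 6 higher and 1 lower.

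Others kept going. Gpc4 was at 149 FPKM at day 3, 132 at day 4, 70.7 at day 5 and 33.0 at day 10, and Thy1 at 82.8, 60.0 and 16.3 (1 library) from day 4. Krt8 was at 3.49 FPKM at day 3, 7.06 at day 4, 15.6 at day 5 and 189 at day 10 (1 library), and Cldn3 at 0.799, 2.07, 5.15 and 81.1. All 12 epithelial genes tested were called higher at day 10 than at day 5, where 27.3% of all genes tested were. The filter counted the day 10 libraries, so some of these genes were tested only through their later level. Cldn6, for example, was at 0 in both day 5 libraries and at 24.8 FPKM at day 10 (1 library). The count is therefore a description and cannot be weighed against the share of all genes. Spn was highest at day 5, with 1.82 FPKM at day 3, 3.79, 12.9 and then 1.07. All 10 S phase genes tested were called lower at day 10 than at day 5, where 22.4% of all genes tested were. Mcm6 had 29.7 FPKM (1 library) against 73.7.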

How the data were processed

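Expression was taken from the tables the authors deposited for each library, with FPKM and its lower and upper bound. Per the submitters' processing notes, CASAVA 1.8.2, TopHat2 2.0.10 and Cufflinks 2.2.1 were used, with builds named mm9 and NCBIM37. Gene coordinates are those of the tables (mm9). Gene types came from GENCODE M21, which held 22524 (83.5%) of the identifiers. Values of 16 identifiers with several entries were summed, and Triap1, with a failed status, was left out. A gene missing from a library had no value there, never 0.

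Using limma 3.58.1 (R 4.3.3), log2(FPKM + 1), with a pseudocount of 1, was fitted with 1 mean for each of 6 groups over 12 libraries (days 4, 5 and 10), with an intensity trend, at least 2 residual degrees of freedom and 1.13 prior degrees of freedom. Where a group lists a gene in 1 library, the spread comes from the other groups. Genes with at least 1 FPKM in at least 2 libraries were tested, and the threshold was an adjusted p of 0.05. The single day 3 libraries were kept out of the fit. The implied fragments hold only if the deposited bounds reflect counting error and nothing else. The procedure was tested on simulated data.

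Named genes were the 15 largest called rises and falls (listed in all 4 libraries, no overlap, a group mean of at least 5 FPKM, assigned names), from each list as many as 5 members with a call, or where there was none as many as 2 tested members, 9 genes chosen whatever their values, and called differences between vectors. Some genes of these sets are not reported here. Other genes were chosen after their values were seen. The members and lists were chosen with earlier results of these data known. No label says that replicates with equal numbers share a culture, so no replicate block was used. Python 3.11.15 with pandas 2.3.3 read the tables, and figures were drawn with matplotlib 3.10.9. Alternatives were the pseudocount, the filter, the scaling, the trend, the libraries fitted, the genes kept, the zeros, the block and each library left out.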

Additional observations from a re-analysis of the deposited data

Results flagged for a closer look

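The test of the difference between the vectors, Cdk9-DN change minus control change from day 4 to day 5, picked out 3 named entries. A U6 small nuclear RNA entry on chromosome 10 (66698609 to 66698709) was listed at 0 in both control libraries of day 4 and had 39.1 and 53.8 FPKM at day 5, while all Cdk9-DN libraries of both days were listed at 0 (-5.55, SE 0.19, adjusted p = 1.97e-05). Pvrl2, the nectin-2 gene, had 27.5 and 28.5 FPKM and then 0 and 0 in control cells, against 30.9 and 36.3 and then 16.8 and 29.3 under Cdk9-DN (4.29, SE 0.33, adjusted p = 0.00994). SNORA35 had 17.0 and 13.8 FPKM and then 0 and 0 in control cells and was listed at 0 in the Cdk9-DN libraries (4.03, SE 0.14, adjusted p = 1.97e-05). The part of failed estimates in these values was not tested.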

How the results depend on the processing

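No named gene with a call changed direction under any setting run, while 8 named by the rule without a call, such as Cks1b and Sap30, changed sign under some setting, as did Tgfbi (0.08 without day 5 replicate 2). The 296 genes called in control cells (106 higher, 190 lower) became 26 (13 and 13) in a fit on the compared libraries alone, 153 (55 and 98) with a replicate block, and 647 (285 and 362) with zeros beside at least 5 FPKM taken as missing. Leaving out a library gave 37 to 124 calls, 13 to 38 higher and 24 to 86 lower. The higher calls were 69 with no filter, 64 under quantile normalization and 175 with protein-coding genes. The remaining settings, no filter (214) and protein-coding genes (424) included, gave 214 to 424 calls. For the Cdk9-DN step (194 calls) the counts were 41 in the fit on its own libraries, 88 with the block, 126 with genes listed in every library, 306 with protein-coding genes, 521 with zeros as missing and 35 to 49 without a library. The difference between the vectors (6 calls) gave 28 without a filter, 17 in the fit on 8 libraries, 3 with protein-coding genes, 216 with zeros as missing and 8 to 15 without a library. Control day 10 minus day 5 (2882 calls) gave 1643 and 1802 in the fit on its own libraries and with protein-coding genes. The cause of these moves was not tested. In the block check of same-numbered replicates, the deviations of all group pairs had r from -0.20 to 0.12. The highest was that of control days 4 and 5 (0.12). Such a correlation cannot exclude that replicates with equal numbers share a culture or batch. The smallest called changes were 0.21 and 0.22 on the log2 scale.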

Other observations

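Some single genes outside the lists also changed between day 4 and day 5 in control cells. They were chosen after their values were seen and stand for no group. The connexin genes Gjb5 and Gjb2, of gap junctions, fell, the former from 4.82 and 5.04 FPKM to 2.55 and 1.65 (-0.95, adjusted p = 0.021) and the latter from 1.02 and 0.629 FPKM to 0.265 and 0.136 (-0.60, adjusted p = 0.045). The call of Gjb5 ended without either day 4 library or day 5 replicate 2 (up to 0.104), and that of Gjb2 whichever library was left out (up to 0.186). Cdsn, the corneodesmosin gene of the outer skin, had 6.09 and 7.598 FPKM and then 3.27 and 3.12 (-0.90, adjusted p = 0.0109, and 0.0678 without day 5 replicate 2), and Sprr2b had 4.19 and 3.42 and then 2.25 and 1.67 (-0.70, adjusted p = 0.0339, and up to 0.144 without either day 4 library or day 5 replicate 2). Of 16 Sprr and Lce genes tested 2 fell and 0 rose, with a median of 0.00, where 3.19% of all genes tested fell. Krt20, a keratin of gut epithelium, had 2.10 and 2.33 FPKM and then 0.635 and 0.872 (-0.88, adjusted p = 0.0107, and 0.0623 without either day 4 library), while Krt8 rose in the same libraries. Has2, a hyaluronan synthase gene, had 4.30 and 4.08 FPKM and then 1.99 and 2.46 (-0.69, adjusted p = 0.021, and up to 0.114 whichever library was left out), and Ptx3, a pentraxin gene, had 41.6 (1 library) and then 16.3 and 13.8 (-1.41, adjusted p = 0.0102, and 0.0506 without day 5 replicate 2). Msn, which encodes moesin, the linker of membrane and actin, had 239 and 246 FPKM and then 160.2 and 159.6 (-0.60, adjusted p = 0.021, and up to 0.125 whichever library was left out).

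Other single genes rose. Trh, the thyrotropin-releasing hormone gene, had 0.688 and 1.30 FPKM at day 4 and 3.21 and 3.06 at day 5 (1.07, adjusted p = 0.0256), and 189 and 162 at day 10. Tac2, a tachykinin gene, had 0 and 0.306 FPKM and then 1.23 and 1.05 (adjusted p = 0.0355), and 197 at day 10 (1 library). Pcsk1n, an inhibitor of prohormone convertase, had 4.76 FPKM (1 library) and then 14.8 and 15.1 (1.47, adjusted p = 0.0434). The calls of Trh and Tac2 ended without day 4 replicate 1 or either day 5 library (up to 0.116 and 0.137), and that of Pcsk1n in each of the 3 refits (up to 0.149). Skp2, the ubiquitin ligase subunit that targets p27, had 13.2 and 11.7 FPKM and then 18.5 and 17.8 (0.51, adjusted p = 0.0134), and Myb had 1.14 and 0.793 and then 2.97 and 3.11 (1.05, adjusted p = 0.0197). Nt5e, the CD73 ectonucleotidase gene, had 3.53 FPKM (1 library) and then 11.1 and 10.03 (1.35, adjusted p = 0.0134). The call of Skp2 ended without day 4 replicate 2 or either day 5 library (up to 0.0693), that of Myb whichever library was left out (up to 0.102), and that of Nt5e without either day 5 library (0.0612 and 0.0644).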
